A study of Mus musculus with 6 samples.

Results

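The TNF superfamily ligands and receptors were read in RNA from mouse skeletal stem cells (mSSCs), sorted from the Achilles tendon-to-bone interface of C57BL/6 mice. Members were taken by gene symbol: every Tnfsf or Tnfrsf gene followed by a digit, and Tnf, Lta, Ltb, Ltbr, Fas, Fasl, Cd40, Cd27, Cd70, Eda, Edar and Ngfr. The rule matched 44 of 26130 genes in the deposited table, namely 17 ligands, 26 receptors and the antisense transcript Tnfsf13os. The 3 groups were sham control (n = 2), uninjured (n = 1) and partially injured (n = 3), all profiled in a series harvested at post injury day 7. The description of the uninjured library reads as a sham, so injured libraries were compared first with the 2 sham libraries and then with all 3 non-injured libraries. The 2 comparisons share 5 libraries and are not independent. The labels do not say whether a library is 1 animal or a pool, so the p-values speak only to the variation among these libraries, some of which may be technical. cDNA was amplified from 150 pg of total RNA, an amount at which a rare transcript can be missed in a library or amplified to many reads.

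Ligands of the superfamily are mostly trimeric membrane proteins, some of which are shed, and they cluster their receptors on the responding cell. Receptors with a cytoplasmic death domain can start caspase signalling, others bind TRAF adaptors and activate NF-kappaB and MAP kinases, and decoy receptors bind ligand without signalling. In the skeleton the family is best known for the triad of RANKL (Tnfsf11), its receptor RANK (Tnfrsf11a) and the secreted decoy osteoprotegerin (Tnfrsf11b), which sets osteoclast formation, and for TNF itself in inflamed tendon and joint.

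Library totals ran from 37506188 to 51089267 counts. The mSSC sort genes Itgav and Cd200 were read in all 6 libraries, at 31.1 to 116 and 31.0 to 160.2 CPM (read counts scaled to library size after TMM normalization). Among the other sort genes Tek, also an endothelial marker, ran from 0.580 to 61.7 CPM and Thy1 from 0.0730 to 14.3 CPM. Enpep and Eng, also listed as sort genes, are given only within the sum of the 7 listed genes found. That sum was 408 and 211 CPM in sham 1 and 2 and 310 CPM when uninjured. In injured 1, 2 and 3 it was 185, 201 and 248 CPM, and 3 of the 7 had no count in sham 2. Ptprc is given below, and the purity of the sorted cells was not tested. Markers of other cell types differed widely within groups, and some also between them. The 12 macrophage markers summed to 3069 and 48.0 CPM in sham 1 and 2, 189.5 in the uninjured library; the injured libraries 1, 2 and 3 gave 5109.5, 1284 and 38.6 CPM. Of the 12, 5 had no count in sham 2 and 2 had none in the uninjured library. The 10 neutrophil markers summed to 9970.3, 24.1, 793, 6339, 564 and 4.75 CPM in the same order, and the pan-leukocyte gene Ptprc stood at 0 in sham 2 and injured 3 and at 1.24 to 24.8 CPM elsewhere. The 7 erythroid markers measured summed to 38770.3 CPM in sham 1, 1.19 in sham 2, 127 when uninjured, and 6077, 593 and 7.54 CPM in injured 1, 2 and 3. Schwann cell markers summed to 5305, 887 and 949 CPM outside the injured group and to 605, 341 and 377 CPM in it; all 10 had a fold below 0 against sham, 6 at an unadjusted p under 0.05 by edgeR. All 10 endothelial markers also had a fold below 0 (none at that p), and of 10 chondrocyte markers 7 had a fold above 0, 3 at that p. The endothelial sums were 1654 and 0.746 CPM in sham 1 and 2, 812 CPM when uninjured, and 312, 162 and 77.8 CPM in injured 1, 2 and 3. In sham 2, 8 of the 10 had no count, so the endothelial folds against sham rest on sham 1. All 7 erythroid markers had a fold below 0 against sham too, 1 of them at that p. By edgeR 0 of these markers passed adjustment. Against sham DESeq2 called 4 Schwann markers, 2 chondrocyte markers and 1 erythroid marker, Slc4a1, which was read in sham 1 alone. The part of these cells in the members' differences was not tested. Blood-cell transcripts were thus high in sham 1 and injured 1, and the main results are also given without them. In such bulk samples fewer cells of a type and less RNA per cell cannot be told apart.

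Receptor transcripts far outweighed ligand transcripts, and a few receptors carried most of the family signal. Summed over the 26 receptors the level was 712 and 1998 CPM in sham 1 and 2, 1189.9 when uninjured, and 875, 796 and 758 CPM in injured 1, 2 and 3. The 17 ligands together reached 142, 85.2, 34.4, 75.7, 112 and 73.2 CPM in the same order. Of the receptor total in sham 2, the osteoprotegerin gene held 1187 CPM. Tnfsf4, Tnfsf18, Lta and Cd70, ligands of activated lymphocytes and antigen-presenting cells, had no count in any library. Members with at least 1 count numbered 27 and 22 in sham 1 and 2, 25 when uninjured, and 31, 32 and 39 in injured 1, 2 and 3. The injured counts lay above all others, and the injured libraries were also the deepest of the series.

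**Figure D1:**
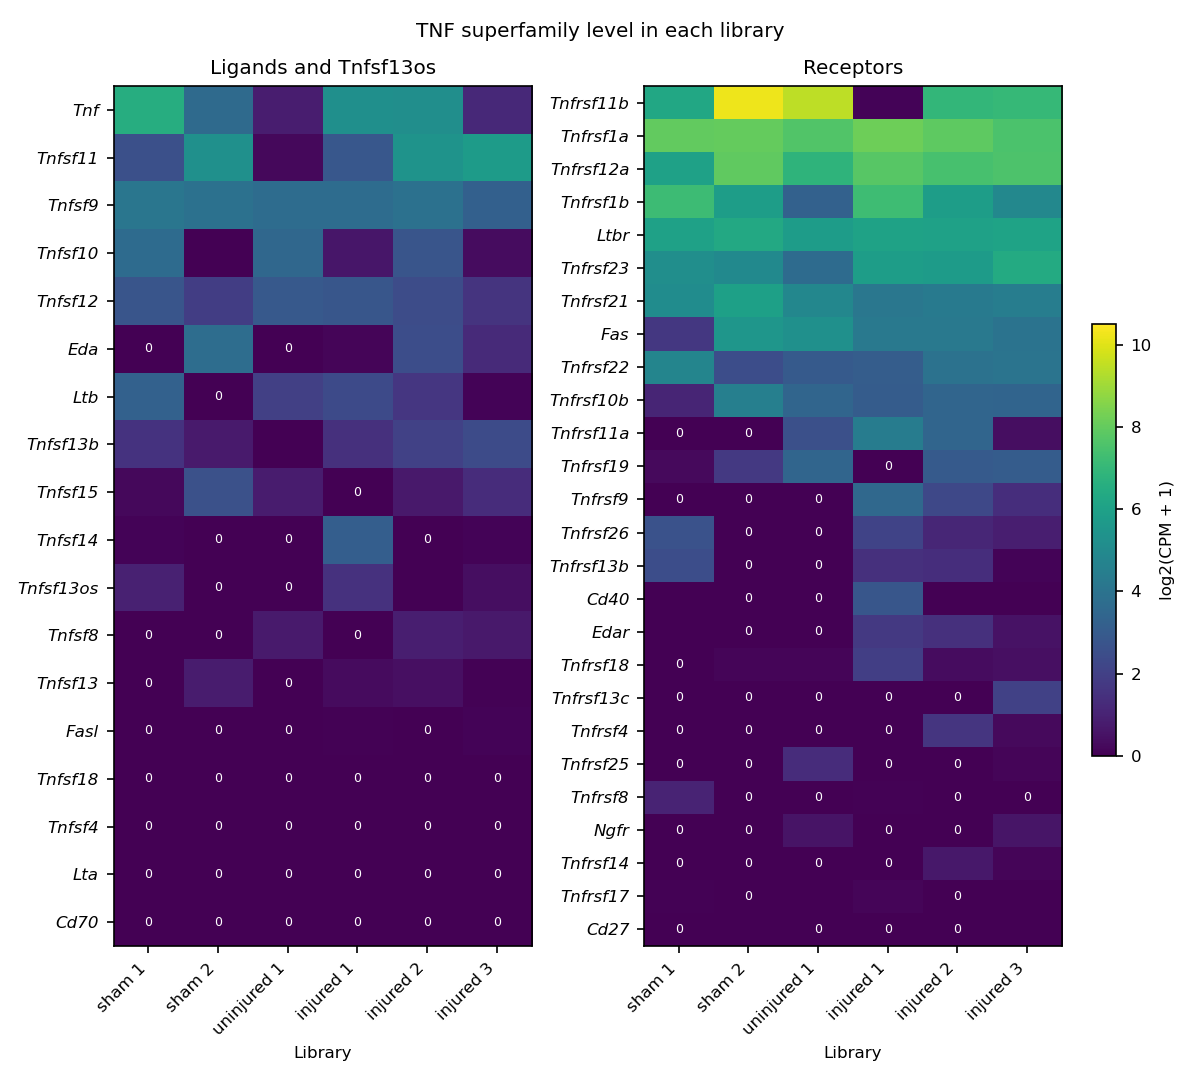
Level of each ligand (left, with the antisense transcript Tnfsf13os) and receptor (right) as log2(CPM + 1) in the 6 libraries, genes ordered by mean CPM; a printed 0 marks no count. Colours compare libraries along a row, since CPM is not divided by gene length; Tnfrsf1a and Ltbr vary little across libraries, whereas Tnfrsf11b runs from 0.0679 CPM in injured 1 to 1187 CPM in sham 2.

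Levels of different genes were compared per kilobase of the longest protein-coding transcript (GENCODE M21). On that scale, averaged over the 6 libraries, Tnfrsf12a led with 169 CPM per kb, followed by Tnfrsf11b with 132 and Tnfrsf1a with 109.8. Tnfrsf12a encodes Fn14, the receptor of TWEAK, and Tnfrsf1a the widely expressed TNF receptor 1. A step lower stood Ltbr (lymphotoxin-beta receptor) at 31.2, the TRAIL decoy receptor Tnfrsf23 at 30.8, Tnfrsf1b (TNF receptor 2) at 19.4 and Tnf at 18.2 CPM per kb. On this mean Tnf was the highest ligand, and Tnfsf11 (10.7) and Tnfsf9 (9.97), the 4-1BB ligand, came next. The ligand order differed between libraries. Tnf led in sham 1 (56.6 CPM per kb), injured 1 and injured 2. Tnfsf11 led in sham 2 (17.0 against 6.87 for Tnf) and injured 3 (23.8 against 0.784), and Tnfsf9 in the uninjured library (9.49 against 0.475). The order of the first 2 receptors is not firm, because the osteoprotegerin level varied far more between libraries than the gap between them.

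Injury was first set against sham control to ask which family members differ in stem cells of the injured interface. No member passed the test over all genes: by edgeR's quasi-likelihood test with Benjamini-Hochberg adjustment 0 of 37 members tested reached adjusted p of 0.05 (smallest 0.865), and percent called over all 16752 genes was 0. At an unadjusted p under 0.05 there were 2 members higher, Tnfrsf11a and Tnfrsf9, and 1 lower, Tnfrsf21. Over all genes tested 4.64% reached that p, 2.44% higher and 2.2% lower. DESeq2 called 3 of 37 members, Tnfrsf11a, Tnfrsf9 and Tnfrsf13c, where it called 2.48% of all genes. Of these Tnfrsf13c had reads in injured 3 alone. All 3 injured values exceeded both sham values for 5 members (background 11.9%) and fell short of both for 2 (background 9.11%). Without sham 1 and injured 1, a choice made after seeing the data, these counts were 17 and 12 of 34 members tested, and 6241 and 5140 of 16136 genes. The median log2 fold change of the members tested was -0.04, beside 0.09 over all genes, with 18 above 0 (53.7% of all genes) and 19 below. Of the 37, 8 had no count in sham control and passed the filter through other libraries only, so these counts describe the family and support no shift of it. With those 8 set to their lower bound the median was -0.12, and by limma-voom it was 0.88 beside 0.16 over all genes. With library-size scaling the medians were 0.06 for members and 0.23 for all genes. Leaving out sham 1 or sham 2 gave member medians of 1.79 and 2.14, beside 0.26 and 0.30 over all genes.

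Against all 3 non-injured libraries the picture was similar in kind. By edgeR 0 of 28 members tested passed (smallest adjusted p = 0.452), and 0 of 14110 genes, and 14 of the 28 had a fold above 0, as did 50.1% of all genes. An unadjusted p under 0.05 was found for 4 members and for 7.43% of all genes. Of the 4, Tnfrsf9, Edar and Tnfrsf23 were higher, where 3.71% of all genes were, and Tnfrsf21 was lower, where 3.72% were. DESeq2 called 2 of 31 members, Tnfrsf9 and Edar, against 3.2% of all genes. The groups did not overlap for 4 higher members (Tnfrsf9, Edar, Tnfrsf23, Tnfrsf18; background 9.26%) and 1 lower, Tnfrsf21 (background 7.04%). All of these are receptors. Tnfrsf9, Edar and Tnfrsf18 had at most 4 reads in any non-injured library and passed the filter through the injured libraries only. These counts therefore describe the family and support no shift of it. No ligand reached an unadjusted p under 0.05 by edgeR in either comparison.

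**Figure D2:**
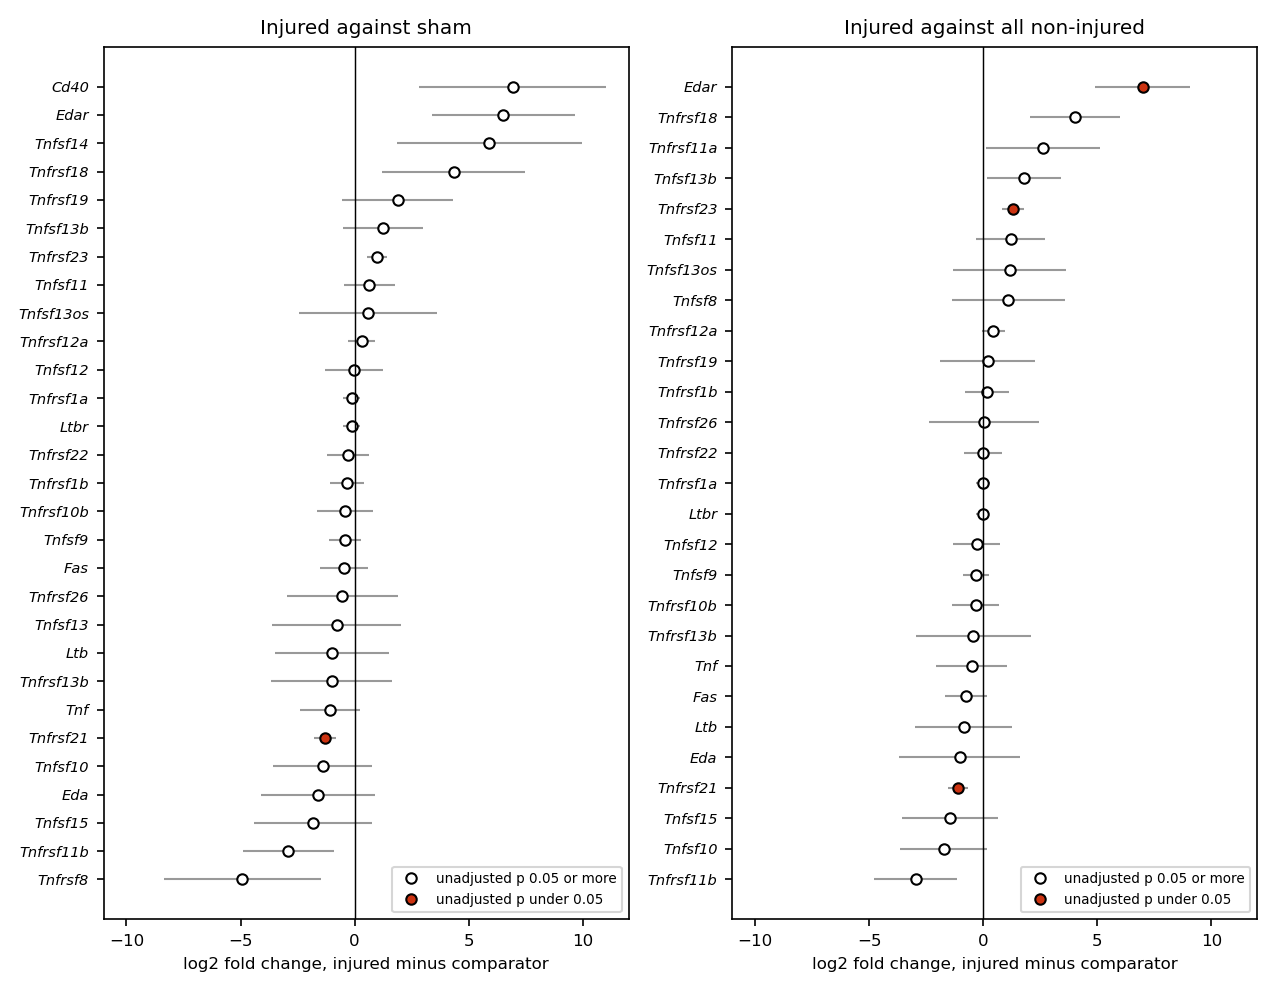
Log2 fold change (points) with its standard error (bars) of each tested member by edgeR, injured minus sham on the left and injured minus all non-injured on the right; members with no count in a whole group are left out. Filled points mark an unadjusted p under 0.05 (Tnfrsf21 on the left; Edar, Tnfrsf23 and Tnfrsf21 on the right); the folds of Edar, Cd40 and Tnfsf14 rest on 1 to 3 reads outside the injured group, and Ltbr and Tnfrsf1a lie near 0 with short bars.

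The clearest on-off pattern was that of Tnfrsf9, which encodes the T-cell costimulatory receptor 4-1BB. It had 468, 234 and 76 reads in injured 1, 2 and 3, or 10.6, 3.86 and 1.63 CPM, and no read in either sham library or the uninjured one. The level was therefore at least 125-fold higher than in sham control and at least 196-fold higher than in all non-injured libraries, against a floor of 3 counts over the group that covers counting error only. Injured 1 held most of the reads: without it the bounds were 70.5-fold and 110.1-fold, and without sham 1 and injured 1 they were 34.9-fold and 74.5-fold, the floor being higher over fewer libraries. Without sham 1 alone the bounds were 62.0-fold and 132-fold, without sham 2 63.4-fold and 134-fold, and without the uninjured library 125-fold. Unadjusted p was 0.0108 and 0.00395 by edgeR in the 2 comparisons (adjusted p = 0.865 and 0.452), and adjusted p was 0.000939 and 1.22e-05 by DESeq2. Within the injured group its order followed that of the macrophage markers (5109.5, 1284 and 38.6 CPM), and sham 1 summed to 3069 CPM of them; their part in the result was not tested. The 12 lymphocyte markers summed to 76.9 and 0.193 CPM in sham 1 and 2, 0.0243 CPM when uninjured, and 48.2, 13.3 and 0.428 CPM in injured 1, 2 and 3. Among the T-cell genes of that list Cd3e reached 0.113 CPM, Cd3d 0.611 CPM in injured 2 and Cd8a 4.60 CPM in sham 1. Trac, however, separated the groups as Tnfrsf9 did (edgeR unadjusted p = 0.202 and 0.0554). Its lowest injured level was 0.236 CPM (injured 3) and its highest 2.28 CPM (injured 2), against at most 0.110 CPM elsewhere. Gzma, also listed, was read in injured 1 alone (9.75 CPM), whereas Nkg7 was highest in sham 1 (5.87 CPM). The part of lymphocytes in the Tnfrsf9 result was not tested.

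Edar, the receptor of ectodysplasin in hair, tooth and gland placodes, had 103, 106 and 19 reads in injured 1, 2 and 3 and 1 read in all non-injured libraries together (sham 1). In CPM this was 2.33, 1.75 and 0.407 against at most 0.0270. The ratio of pooled counts was 172 against all non-injured libraries, with an exact 95% interval of 30.6 to 6825 that covers counting error only. Unadjusted p was 0.0767 against sham and 0.0113 against all non-injured by edgeR, where the adjusted p of 0.865 and 0.452 did not pass. Levels were low in every library. Without sham 1 and injured 1 the unadjusted p by edgeR was 0.122 and 0.0299. Tnfrsf18, which encodes the costimulatory receptor GITR, stood at 2.87, 0.281 and 0.343 CPM in injured cells, 0 and 0.110 in sham and 0.0974 in the uninjured library. All injured libraries were above all others, but only injured 1 by a wide margin (edgeR unadjusted p = 0.211 and 0.0804). Its log2 fold changes of 4.33 and 4.01 were 1.47 and 1.56 without sham 1 and injured 1.

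Tnfrsf23, a decoy receptor of the death ligand TRAIL, was the most abundant member that separated the groups. It had 56.6, 53.7 and 84.2 CPM in the injured libraries 1, 2 and 3, 35.5 and 30.8 CPM in sham 1 and 2 and 11.8 CPM when uninjured. The injured mean was 64.8 ± 16.8 CPM (SD, n = 3) against 33.1 ± 3.34 in sham (SD, n = 2). The log2 difference of 0.97 ± 0.43 did not pass (SE; edgeR unadjusted p = 0.0615, adjusted p = 0.865). Against all non-injured libraries (26.0 ± 12.5 CPM, SD, n = 3) it was 1.31 ± 0.49 (edgeR unadjusted p = 0.0293, adjusted p = 0.582). Every injured library exceeded every other one. Without sham 1 and injured 1 the log2 fold changes were 1.16 and 1.70. Injured 2, which stayed in, summed to 1284 CPM of macrophage markers. Tnfrsf23 has near copies next to it, Tnfrsf22 and Tnfrsf26, and the way reads were split among them was not given in the sources used here.

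Tnfrsf21, which encodes the death-domain receptor DR6, went the other way. It stood at 33.5 and 61.0 CPM in sham 1 and 2, 28.4 CPM when uninjured, and 17.0, 19.4 and 20.6 CPM in injured 1, 2 and 3. The injured libraries were close together and all below the lowest non-injured one. The log2 fold change was -1.32 ± 0.48 against sham and -1.12 ± 0.43 against all non-injured libraries (SE; edgeR unadjusted p = 0.0290 and 0.0347, adjusted p = 0.865 and 0.608). Over the other settings tried against sham the unadjusted p ran from 0.00390 to 0.202, the latter without sham 2, and the fold stayed below 0 in all 13. Without sham 1 and injured 1 the fold was -1.61 and -1.16 in the 2 comparisons (edgeR unadjusted p = 0.0607 in the second). The first then had sham 2 as its only sham library. Tnfsf9, named after its values were seen, was the second member wholly below sham, but by little, at 8.35 to 13.9 CPM against 14.2 and 16.4 CPM (edgeR unadjusted p = 0.555).

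**Figure D3:**
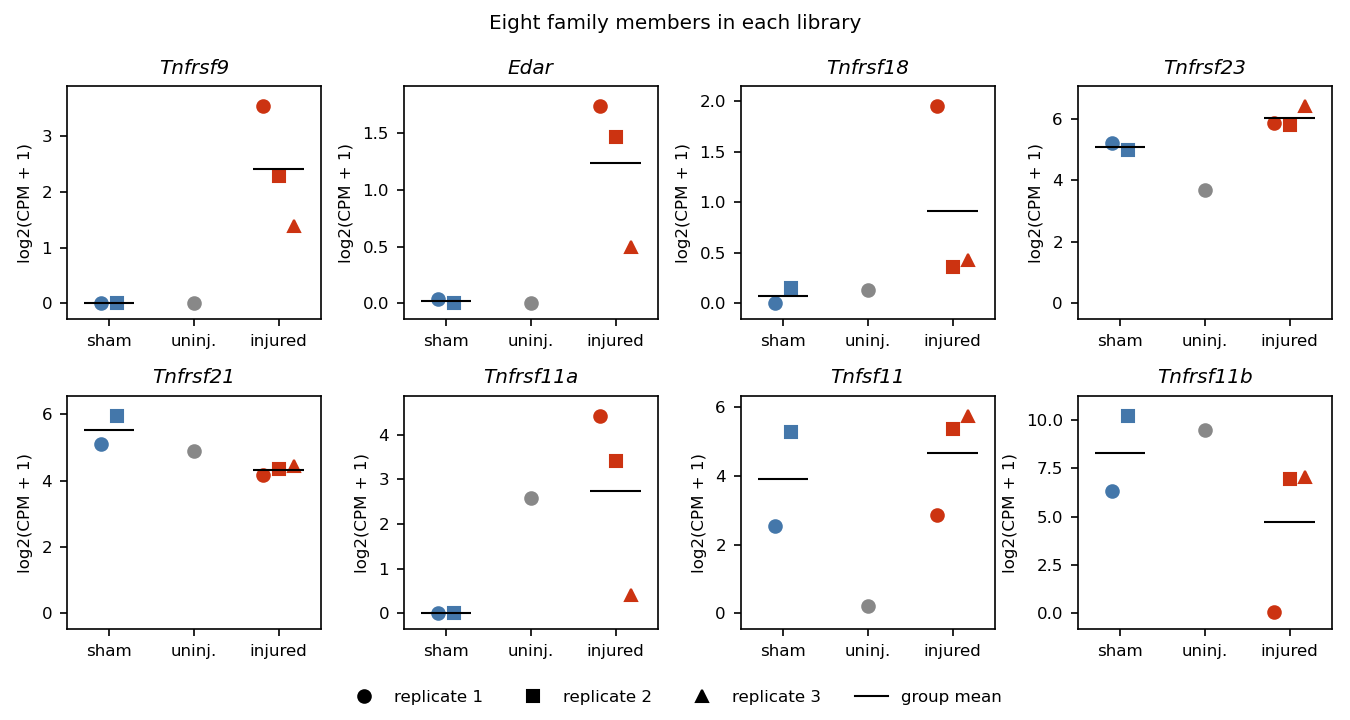
Level as log2(CPM + 1) in each library of the receptors whose groups did not overlap in either comparison (Tnfrsf9, Edar, Tnfrsf18, Tnfrsf23, Tnfrsf21) and of the RANK, RANKL and osteoprotegerin genes (Tnfrsf11a, Tnfsf11, Tnfrsf11b); symbols are replicates, bars are group means, and each panel has its own axis. Tnfrsf9 is at 0 in all non-injured libraries, Tnfrsf21 is lowest in the injured ones, and the RANKL and osteoprotegerin genes spread widely within groups.

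The sequences before the start sites of the 4 receptors with an unadjusted p under 0.05 against all non-injured libraries are shown, since these separated the groups in the same way in both comparisons. They are the 250 bases before the first start listed by RefSeq (GRCm38.p6), 5′ to 3′ on the gene's strand, at chr4:150919905-150920154 (+ strand), chr10:58675697-58675946 (- strand), chr7:143685876-143686125 (- strand) and chr17:43016305-43016554 (+ strand). Capitals mark matches on either strand to the CCAAT box (CCAAT) and the GC box (GGGCGG), 2 motifs added after the sequences were seen.
Tnfrsf9: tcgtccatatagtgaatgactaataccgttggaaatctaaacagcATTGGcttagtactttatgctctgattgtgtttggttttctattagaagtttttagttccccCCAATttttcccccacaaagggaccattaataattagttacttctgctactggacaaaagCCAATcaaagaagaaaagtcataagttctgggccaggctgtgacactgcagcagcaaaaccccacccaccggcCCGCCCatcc
Edar: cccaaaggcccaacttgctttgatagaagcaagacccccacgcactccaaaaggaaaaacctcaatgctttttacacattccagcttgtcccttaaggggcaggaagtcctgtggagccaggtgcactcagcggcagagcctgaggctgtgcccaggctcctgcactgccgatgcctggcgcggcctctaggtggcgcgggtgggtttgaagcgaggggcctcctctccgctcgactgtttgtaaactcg
Tnfrsf23: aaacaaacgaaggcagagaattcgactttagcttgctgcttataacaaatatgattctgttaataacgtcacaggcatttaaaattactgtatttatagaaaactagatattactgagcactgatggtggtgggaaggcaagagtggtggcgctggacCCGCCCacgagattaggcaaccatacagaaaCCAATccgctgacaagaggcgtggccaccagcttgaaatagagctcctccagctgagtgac
Tnfrsf21: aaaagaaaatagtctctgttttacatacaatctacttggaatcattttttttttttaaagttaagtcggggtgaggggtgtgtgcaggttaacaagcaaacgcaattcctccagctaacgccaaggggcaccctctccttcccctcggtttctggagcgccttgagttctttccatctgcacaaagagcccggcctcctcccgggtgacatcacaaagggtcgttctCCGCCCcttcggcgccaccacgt
Tnfrsf9 held 3 CCAAT boxes and 1 GC box, Tnfrsf23 1 of each, Tnfrsf21 1 GC box and Edar neither, and no 2 matches overlapped. Over the same window of 27025 genes a CCAAT box was found in 34.5% and a GC box in 32.9%. None of the 4 windows held the AP-1 motif TGANTCA (6.87% of all genes) or the NF-kappaB consensus (4.78%). Of the 34 members with a listed promoter, Ltb and Tnfrsf8 held the NF-kappaB consensus and Fas, Tnfrsf8, Tnfsf13 and Tnfsf14 the AP-1 motif. A match describes letters in this window and no binding.

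The RANKL and osteoprotegerin genes varied widely within groups, and the RANK gene was read outside sham control only. Tnfrsf11b, the decoy that keeps RANKL from RANK, stood at 78.6 and 1187 CPM in sham 1 and 2, 704 CPM when uninjured, and 0.0679, 124 and 130.2 CPM in injured 1, 2 and 3. Injured 1 had only 3 reads of it in 49952680. The mean was 84.7 ± 73.4 CPM (SD, n = 3) in injured cells, 633 ± 784 in sham (SD, n = 2) and 657 ± 556 in all non-injured libraries (SD, n = 3). The log2 fold changes of -2.90 ± 1.98 and -2.96 ± 1.82 (SE) did not pass (edgeR unadjusted p = 0.187 and 0.147). Sham 1 lay within the injured range, and without sham 2 the log2 fold change against sham was 0.11. Without sham 1 and injured 1, both rich in blood-cell transcripts, the log2 fold changes were -3.22 and -2.90. The first had sham 2 as its only sham library. The second had an edgeR unadjusted p of 0.000923 (adjusted p = 0.357). The libraries left out also held the lowest values of this transcript, so these results do not stand as separate support.

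Tnfsf11, the osteoclast-inducing ligand, stood at 4.89 and 38.0 CPM in sham 1 and 2 and at 6.27, 40.7 and 53.2 CPM in injured 1, 2 and 3. The uninjured library had 7 reads, or 0.170 CPM, the lowest of the series. The low values in sham 1 and injured 1 fall in the libraries with the most blood-cell transcripts, and the part of those cells in the difference was not tested. The groups overlapped (log2 fold change 0.64 ± 1.11 and 1.21 ± 1.51, SE; edgeR unadjusted p = 0.584 and 0.446). The ratio of Tnfrsf11b to Tnfsf11 reads was 16.1 and 31.2 in sham 1 and 2, 4134 when uninjured, and 0.0108, 3.04 and 2.45 in injured 1, 2 and 3. All 3 injured ratios were thus below all non-injured ones, although neither gene alone separated the groups. This ratio was formed after the values were seen and was given no test.

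Tnfrsf11a, the RANK gene of osteoclast precursors, had no read in sham 1 or 2 and 906, 586 and 15 reads in injured 1, 2 and 3, or 20.5, 9.68 and 0.321 CPM. The level was at least 243-fold higher than sham control against the floor of 3 counts over the group, a bound that was 137-fold without injured 1, 120.1-fold without sham 1, 122.7-fold without sham 2 and 67.6-fold without sham 1 and injured 1 (edgeR unadjusted p = 0.00942, adjusted p = 0.865; DESeq2 adjusted p = 0.000196). The uninjured library, however, stood at 4.97 CPM, within the injured range, and against all non-injured libraries the log2 fold change was 2.61 (edgeR unadjusted p = 0.330) and 1.01 without sham 1 and injured 1. Its order among injured libraries followed the macrophage markers, of which sham 1 held 3069 CPM, and their part in the result was not tested. Of the 8 osteoclast markers, Calcr was at 0 in every library, Dcstamp had at most 0.0270 CPM and Oscar was read in injured 3 alone. Acp5 stood at 13.3 to 47.4 and Ctsk at 250.4 to 519.8 CPM. Ocstamp stood at 5.63 CPM in sham 2, 0.171 in injured 3 and 0 elsewhere. Atp6v0d2 and Mmp9 were highest in sham 1 (17.1 and 411 CPM), with 1.03 to 3.60 and 2.89 to 201 CPM in injured libraries. Of the 6 tested against sham, 1 had a fold above 0 and 5 below. Their median log2 fold change was -0.97, beside 0.09 over all genes.

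Tnf, the founding cytokine of the family, followed single libraries rather than groups. It stood at 92.7 and 11.3 CPM in sham 1 and 2, 0.779 CPM when uninjured, and 36.9, 35.8 and 1.28 CPM in injured 1, 2 and 3. The 3 highest values were those of the 3 libraries with the highest macrophage sums (sham 1, injured 1 and injured 2), and the part of macrophages in them was not tested. The log2 fold change was -1.08 ± 1.31 against sham (SE; edgeR unadjusted p = 0.438), and 0.72 without sham 1 and injured 1. Lta and Ltb, its neighbours, stood at 0 in every library and at 8.60, 0, 2.92, 4.16, 2.18 and 0.0857 CPM in the order sham 1, sham 2, uninjured, injured 1 to 3. Ltb encodes the membrane anchor of lymphotoxin.

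The 2 TNF receptors behaved differently. Tnfrsf1a stood at 252 and 262 CPM in sham 1 and 2, 197 when uninjured, and 290.0, 236 and 184 CPM in injured 1, 2 and 3. Its groups overlapped, with a log2 fold change of -0.12 ± 0.37 against sham (SE; edgeR unadjusted p = 0.758), a value that was 0.01 with library size scaling. Tnfrsf1b, found mainly on leukocytes and endothelium, stood at 144, 56.7 and 8.69 CPM in sham 1, sham 2 and the uninjured library and at 151, 56.4 and 29.0 CPM in injured 1, 2 and 3. Its highest values were in sham 1 and injured 1, the libraries with the highest macrophage sums, whose part was not tested. The log2 fold changes were -0.35 and 0.17, and -0.41 and 0.39 without those libraries. Ltbr, a stromal receptor of lymphotoxin and LIGHT, was the steadiest of these: 64.0 and 79.4 CPM in sham, 55.5 when uninjured, and 64.8, 63.9 and 67.2 in injured libraries (log2 fold change -0.13 ± 0.36, SE; edgeR unadjusted p = 0.718; 0.01 with library size scaling).

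**Figure D4:**
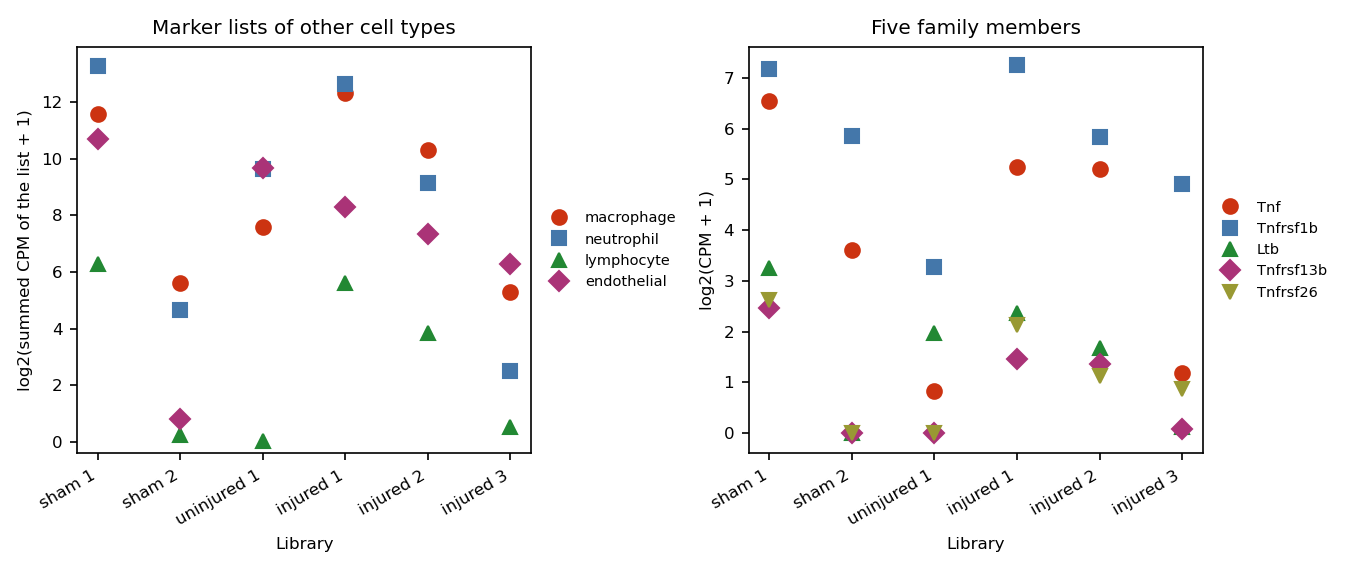
Summed CPM of 4 marker lists of other cell types (left) and CPM of Tnf, Tnfrsf1b, Ltb, Tnfrsf13b and Tnfrsf26 (right) in each library, both as log2 of the value + 1. Sham 1 and injured 1 are highest for macrophage, neutrophil and lymphocyte markers and for the 5 members, with Tnf and Tnfrsf13b in injured 2 close behind; sham 2 lies low on the left but holds Tnfrsf1b at 56.7 CPM.

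Tnfrsf12a (Fn14), a small receptor induced by growth factors and wounding, was among the highest members in every library: 63.3 and 247 CPM in sham 1 and 2, 112 when uninjured, and 215, 173 and 188 CPM in injured 1, 2 and 3. The injured libraries were close together, at 192 ± 21.5 CPM (SD, n = 3), and fell between the 2 sham libraries. The log2 fold change of 0.31 ± 0.58 against sham did not pass (SE; edgeR unadjusted p = 0.613) and was -0.36 without sham 1. Its ligand Tnfsf12, TWEAK, stood at 1.95 to 6.57 CPM in all libraries with no separation (edgeR unadjusted p = 0.974 and 0.783). Tnfsf12 lies next to Tnfsf13, of which Tnfsf13os is the opposite-strand transcript; no source used here states a strand setting for the counting, so reads of these genes cannot be told apart with certainty.

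The death receptors Fas and Tnfrsf10b differed more between the 2 sham libraries than among the injured ones. Fas, the receptor that triggers apoptosis, stood at 2.24 and 44.4 CPM in sham 1 and 2, 37.9 when uninjured, and 17.8, 17.7 and 14.9 CPM in injured 1, 2 and 3. Tnfrsf10b, the mouse TRAIL death receptor, stood at 1.11 and 22.4 CPM in sham, 9.62 when uninjured, and 7.26, 9.64 and 9.46 CPM in injured cells. In both genes all injured values fell between those of the 2 sham libraries, and neither passed (edgeR unadjusted p = 0.665 and 0.739 against sham). Their ligands were low: Fasl had 6 reads in all, in injured 1 and 3, and Tnfsf10 (TRAIL) stood at 11.6 and 0.0276 CPM in sham, 10.2 when uninjured, and 0.543, 5.73 and 0.278 CPM in injured 1, 2 and 3. Tnfrsf22 and Tnfrsf26, the near copies beside Tnfrsf23, overlapped between groups. Tnfrsf22, named after its values were seen, stood at 26.3 and 4.58 CPM in sham, 6.84 when uninjured, and 7.67 to 15.6 CPM in injured cells.

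Members known from ectoderm, nerve and progenitor cells were read in some libraries only. Eda, the ligand of Edar, stood at 0 and 12.5 CPM in sham 1 and 2, 0 when uninjured, and 0.113, 4.62 and 1.39 CPM in injured 1, 2 and 3, so ligand and receptor were highest in different libraries. Edaradd, the adaptor that links Edar to TRAF proteins, was read in sham 1 alone (1.24 CPM). Tnfrsf19 (TROY), a receptor of progenitor cells in several tissues, stood at 0.189 and 2.37 CPM in sham, 9.86 when uninjured, and 0, 6.84 and 7.39 CPM in injured 1, 2 and 3. Ngfr, the low-affinity nerve growth factor receptor used to mark stromal and glial cells, had 19 reads in the uninjured library, 23 in injured 3 and none elsewhere. Eda, Tnfrsf19 and Ngfr did not reach an unadjusted p under 0.05 by edgeR (smallest 0.229, Ngfr).

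Receptors and ligands of lymphocyte activation were mostly carried by 1 or 2 libraries. Cd40, the costimulatory receptor of B cells and macrophages, had 262 reads in injured 1 (5.93 CPM), 1 each in sham 1, injured 2 and injured 3 and none elsewhere. Tnfrsf4 (OX40) had 128 reads in injured 2, 9 in injured 3 and none elsewhere, and Tnfsf8, the CD30 ligand, had 51 and 30 reads in injured 2 and 3, 28 in the uninjured library and none in the other libraries. These genes had edgeR unadjusted p of 0.135, 0.124 and 0.125 against sham. Tnfsf13b (BAFF), a survival factor of B cells, was read in every library, at 1.87 and 0.690 CPM in sham, 0.0243 when uninjured, and 1.74, 3.04 and 4.26 CPM in injured 1, 2 and 3. Only injured 1 fell below a sham library (edgeR unadjusted p = 0.506 and 0.302). The B-cell receptor genes, chosen after their values were seen, were scattered: Tnfrsf13b stood at 4.54 CPM in sham 1 and at most 1.74 elsewhere, and Tnfrsf13c had 145 reads in injured 3 alone. Tnfsf14 (LIGHT), also chosen so, had 341 reads in injured 1 and at most 3 in any other library.

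Members that lie together in the genome often stood at different levels. In the RefSeq annotation of GRCm38.p6, 23 of 43 protein-coding members lay within 500 kb of another one, in 9 clusters. Ltbr and Tnfrsf1a were both even across libraries, whereas Cd27, in the same cluster, had 2 reads in all. Tnfrsf4 and Tnfrsf18 lie together, yet the first was highest in injured 2 and the second in injured 1. In the cluster of Tnfsf9, Cd70 and Tnfsf14 the first stood at 8.35 to 16.4 CPM in all libraries, the next had no read and the last had 341 reads in injured 1 and at most 3 in any other library. Among Tnfrsf26, Tnfrsf22 and Tnfrsf23 only the last separated injured from non-injured libraries, although the differences between these genes were not tested.

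Of 40 genes listed for signalling (among them adaptors, kinases, caspases, NF-kappaB subunits, ubiquitin enzymes and the shedding genes Adam17 and Rhbdf2), 0 passed against sham by edgeR. At an unadjusted p under 0.05 there was 1 higher and 1 lower, beside the background of 2.44% and 2.2%. Their median log2 fold change was -0.16 (0.09 over all genes). Against all non-injured libraries 39 were tested, 12 above 0 and 27 below, with 2 higher and 3 lower at that p (background 3.71% and 3.72%) and a median of -0.23. DESeq2 called 0 against sham (background 2.48%). Against all non-injured libraries it called 2, Tab1 and Ikbkb (DESeq2 adjusted p = 0.00966 and 0.0186, background 3.2%). Tab1, a subunit of the TAK1 kinase complex, stood at 57.8 and 23.5 CPM in sham, 49.4 when uninjured, and 9.80, 13.4 and 13.7 CPM in injured 1, 2 and 3 (log2 fold change -1.72 ± 0.56, SE; edgeR unadjusted p = 0.0177, adjusted p = 0.865). Ripk3, the kinase of necroptosis, stood at 24.2, 15.7 and 3.82 CPM in sham 1, sham 2 and the uninjured library and at 76.8, 36.7 and 38.6 CPM in injured libraries (1.35 ± 0.56; edgeR unadjusted p = 0.0485). The groups did not overlap for either. Ikbkb, the kinase that releases NF-kappaB, stood at 48.1 to 69.1 CPM in non-injured and 22.9 to 30.8 CPM in injured libraries (edgeR unadjusted p = 0.0551 and 0.0136), and the subunit Rela at 227 to 354 against 84.2 to 209 CPM (0.0595 and 0.0470).

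Of 26 genes known as targets of TNF signalling, which also respond to other signals, 0 passed by edgeR against sham. At an unadjusted p under 0.05 there were 3 higher and 3 lower (background 2.44% and 2.2%), and DESeq2 called 4 (background 2.48%). The chemokine Cxcl5 reached 198, 149 and 173 CPM in the injured libraries and 2.36 to 13.2 CPM elsewhere. Ccl20, another chemokine, was at 6.07, 0.297 and 2.89 CPM and at 0 in all non-injured libraries. The adhesion molecule Icam1 (29.8 to 70.0 against 118 to 457 CPM) and Tnfaip3, the A20 feedback inhibitor of NF-kappaB (53.2 to 69.7 against 141 to 212 CPM), lay wholly below. Target genes thus lay on both sides, with a median log2 fold change of -0.28 against 0.09 over all genes. In the comparison with all non-injured libraries 12 were above 0 and 14 below, with 4 in each direction at an unadjusted p under 0.05 (background 3.71% and 3.72%) and a median of -0.12. There DESeq2 called 4 (background 3.2%).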

How the data were processed

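Each library's RNA was sequenced after SMARTer low-input amplification, per the labels' protocols. The deposited table holds whole-number counts per gene symbol, taken as unscaled; an earlier scaling with rounding was not tested. Tools named without a role, per the submitters' processing notes, are DESeq, DESeq2 1.22.2 and Salmon 0.12.0, with the builds mm9 and GRCm38.p6. Of 26130 genes, 6714 had 0 counts in all libraries; 26 names were turned into dates by a spreadsheet, none of a family member by its symbol.

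Counts were filtered with filterByExpr (minimum 10) and tested with edgeR 4.0.16 (R 4.3.3): TMM scaling, quasi-likelihood F test, Benjamini-Hochberg adjustment over all genes, threshold 0.05. The fit held 6 libraries as 3 groups (3 residual degrees of freedom), or as injured and non-injured (4). Standard errors come from the F statistic. Alternatives were DESeq2 1.42.0, limma-voom (limma 3.58.1), other scalings, no filter, fewer libraries and a replicate block. The fit was tested on simulated counts. Members, lists and tests were chosen with earlier results of these data known. Genes named are the 8 members with the smallest p in each comparison, the 6 highest, fixed ligand-receptor sets, and up to 4 genes of the signalling and target lists. Lengths come from GENCODE M21 rather than from protein lengths, which were planned and not used here. Counting intervals and floors cover counting error only, since reads carry no molecular identifiers.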

Additional observations from a re-analysis of the deposited data

How the results depend on the processing

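Against sham, edgeR called 0 genes in the report's fit and under every leave-one-out, scaling and block setting, while DESeq2 called 426, limma-voom 1 and the fit with no low-count filter 3; against all non-injured libraries these were 481, 7 and 5. Members called by DESeq2 numbered 3 and 2, and by every edgeR and limma-voom setting 0. Members with an unadjusted p under 0.05 against sham were 2 higher and 1 lower in the report; they were 6 higher by DESeq2, 0 lower with library size scaling, 3 lower without sham 1 and injured 1, and ran from 2 to 4 higher (4 without sham 2) and 0 to 2 lower with each library left out. Against all non-injured libraries (3 higher, 1 lower) there were 0 lower with library size scaling, 2 lower without sham 1 and injured 1, and 2 to 5 higher and 0 to 2 lower with each library left out. Members whose groups did not overlap against sham (5 and 2) numbered 17 higher and 12 lower without sham 1 and injured 1, 1 lower with library size scaling, and 5 to 13 higher and 2 to 10 lower with each library left out. Against all non-injured libraries (4 and 1) they numbered 8 and 3 without sham 1 and injured 1, and 4 to 9 higher and 1 to 3 lower with each library left out. Fewer libraries leave fewer values to overlap. Where 1 sham library was left out, the lone one was assumed to vary like the other groups.

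Replicate numbers are shared by sham 1 and 2 and injured 1 and 2, but the labels do not tie them to an animal or day, and 2 pairs cannot show a pairing (correlation of deviations 0.353 and -0.35 for injured 1 with sham 1 and 2). With the replicate block, on 4 libraries, 0 genes were called and members with an unadjusted p under 0.05 were 1 higher and 0 lower.

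Several named members changed direction under some setting. With one library left out, log2 fold changes against sham ran from -3.81 to 0.11 for Tnfrsf11b (above 0 without sham 2), -0.36 to 1.60 for Tnfrsf12a (below 0 without sham 1), -1.23 to 0.47 for Tnfrsf1b (above 0 without sham 1 and, at 0.0057, without injured 3), -0.28 to 0.0305 for Ltbr (without sham 2) and -0.29 to 0.0076 for Tnfrsf1a (without injured 3). Against all non-injured libraries they ran from -0.71 to 1.27 for Tnfrsf1b (-0.38 without the uninjured library), -0.14 to 0.13 for Ltbr and -0.18 to 0.11 for Tnfrsf1a (0.042 and 0.072 without sham 1 and 2). Tnfrsf12a was at -0.45 without sham 1 and injured 1. With library size scaling Ltbr was at 0.0135 and 0.0546 and Tnfrsf1a at 0.0116 and 0.0569 in the 2 comparisons, and with the replicate block Tnfrsf1b was at 0.0071 and Tnfrsf1a at 0.0013. The named members chosen neither by smallest p nor by highest level turned more often. Since p came from these same data, the sets are not on an equal footing. With one library left out, log2 fold changes against sham ran from -0.47 to 0.58 for Tnfsf12 (above 0 without sham 1 or injured 3), -1.35 to 2.99 for Tnfrsf10b and -1.40 to 2.91 for Fas (both above 0 without sham 2), -0.19 to 2.77 for Tnfsf11 (below 0 without sham 1), -2.00 to 9.62 for Ltb, -1.91 to 1.13 for Tnf and -3.85 to 6.17 for Tnfsf10 (all above 0 without sham 1) and -2.998 to 9.55 for Eda (above 0 without sham 2). In the second comparison they ran from -0.66 to 0.0046 for Tnfsf12, -0.37 to 1.92 for Tnfrsf19, -0.87 to 0.71 for Tnfrsf10b, -1.76 to 0.55 for Ltb, -1.12 to 2.04 for Tnf and -2.41 to 9.55 for Eda. Without sham 1 and injured 1 the values against sham were 0.20 for Tnfsf12, 8.71 for Ltb, 0.72 for Tnf and 6.63 for Tnfsf10, and Tnf was at 1.63 against all non-injured libraries. With the replicate block they were 0.35 for Tnfsf12, -1.36 for Tnfrsf19, 0.71 for Tnfrsf10b, 3.04 for Ltb, 0.14 for Tnf, 0.80 for Fas, 1.29 for Tnfsf10 and 0.86 for Eda. By limma-voom they were 0.84 for Tnfrsf10b, 1.51 for Ltb, 0.78 for Fas, 0.59 for Tnfsf10 and 1.29 for Eda against sham, and -0.92 for Tnfrsf19, 0.49 for Tnfrsf10b, 0.43 for Ltb, 0.61 for Tnf, 0.0741 for Fas and 3.02 for Eda against all non-injured libraries. With library size scaling Tnfsf12 was at 0.06 against sham. The values of 9.62 and 8.71 for Ltb and of 9.55 for Eda came from fits whose comparator libraries held no read of the gene. Their size is therefore not a measured fold. Those of 6.17 and 6.63 for Tnfsf10 rest on 1 read in sham 2. The cause of these reversals was not tested. Of the 15 members with the smallest p or highest level, 174 of 187 alternative values against sham kept direction and side of the threshold and 11 reversed, in 5 genes; against all non-injured libraries 146 of 156 did so for 13 members and 8 reversed, in 3. Of the other named members, 27 of 127 values reversed against sham, in 9 of 10 genes, and 17 of 108 against all non-injured libraries, in 7 of 9. Ngfr without injured 3 had no read left in either group and gave no value. A floor of 3 counts was 0.0495 to 0.0828 CPM per library, so lower levels were not measurable.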
